A study of Mus musculus with 23 samples.

Results

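The 43 genes described here encode the machinery that copies DNA in S phase and the proteins that start and guard that process. They were chosen by symbol, with earlier results of these data known, out of 48397 gene symbols in the count table. By role they fall into 8 groups: origin recognition and licensing, helicase activation, polymerases and primase, the sliding clamp with its loader and lagging strand enzymes, nucleotide synthesis, G1/S regulators, chromatin assembly and methylation upkeep, and the replication checkpoint with licensing control. All 43 passed the filter on low counts in each of the 5 comparisons. Fen1 was the only member with no read in 1 of the 23 libraries.

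Polyadenylated RNA was sequenced from sorted cells of Met1-iRFP breast tumours in mice of the FVB strain. Met-1 is a mouse mammary carcinoma line derived from the MMTV-PyMT model, in which the viral middle T oncogene is driven in mammary epithelium, and the cancer cells carry iRFP, which fluoresces in the near infrared. The groups were cancer cells (iRFP+) of exercised mice with 7 libraries, cancer cells of sedentary mice with 8, tumour microenvironment (TME, iRFP-) cells of exercised mice with 4, and TME cells of sedentary mice with 4. The tumour and the strain are common to all 4 groups, so 1 line stands for the cancer cell. The TME sort is defined by missing fluorescence and is a mixture of cell types. The labels used here give neither age, sex nor exercise regime. They number the replicates, with some numbers shared between the sorts, but do not say whether a number marks a mouse. The tests therefore measure spread between libraries, which may be technical.

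Total counts were 20073700 to 25526059 in exercised cancer libraries, 15924340 to 25563245 in sedentary cancer libraries, 22682216 to 37388479 in exercised TME libraries and 16307545 to 35958441 in sedentary TME libraries. Mitochondrial genes took 42.2% of the counts in sedentary TME library 4 and 14.5% in library 6, against 1.86% to 8.63% in the other 21. The summed level of 12 leukocyte markers was 69.7 to 166 CPM (reads scaled to library size) in exercised and 44.96 to 101 CPM in sedentary cancer cells. It was 2398 and 2498 CPM in exercised TME libraries 8 and 9, against 429 to 795 CPM in the other 6 TME libraries. Part of the epithelial list was near 0 in the cancer sort: Krt8 reached at most 0.244 CPM in exercised and 0.507 CPM in sedentary cancer cells, and the medians of Krt19 and Krt7 were 0 in both. Krt18 (median 67.8 CPM exercised, 93.5 CPM sedentary) and Wfdc2 (281 and 318 CPM) were present, and TME cells of exercised and sedentary mice held them as well (Krt18 55.9 and 71.6 CPM, Wfdc2 250.3 and 389.6 CPM). The iRFP transcript was not analysed here, so the sort was not checked by its own marker. How many cancer cells the TME sort held was not tested.

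Before S phase, the origin recognition complex with Cdc6 and Cdt1 loads the Mcm2 to Mcm7 helicase ring onto DNA, which is called licensing. Cyclin E with its kinase then fires origins: Cdc45 and the GINS complex turn the ring into the active helicase, primase with polymerase alpha starts each strand, and polymerases delta and epsilon extend them, held by the clamp PCNA that replication factor C loads. Ribonucleotide reductase supplies deoxynucleotides. Many of these genes are switched on at G1/S by E2F factors, whereas genes of G2 and mitosis are known for CHR elements bound by other complexes.

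The promoters of the set were searched for such sites. RefSeq promoters (GRCm38.p6, 250 bases before to 50 after the start) matched 36 of the 43 genes, with 41 promoters in all, and those of Gins1, Gins2, Gins4, Ccne2, Pole, Rfc2 and Mcm4 are named only. An E2F site, searched as TTTCGCGC, TTTGGCGC, TTTCCCGC or TTTGCCGC on either strand with overlaps counted, was in 16 of 41 promoters (39.0%), against 2.26% of all 32851 promoters. Among 22 promoters of a fixed list of G2 and M phase genes it was in 1 (4.55%). The CHR letters TTTGAA were in 4 member promoters (9.76%), against 17.9% of all promoters and 77.3% of G2 and M phase promoters. CCAAT was in 56.1% of member promoters and 37.4% of all. Mcm6 is shown for its 3 E2F matches, the most of any member, and Pola1, Pole2 and Dtl as members with higher levels in cancer cells that hold a match. The capitals mark E2F matches, and the run of 12 capitals in Mcm6 is 2 overlapping matches.
Mcm6 (chr1:128359656-128359955, minus strand): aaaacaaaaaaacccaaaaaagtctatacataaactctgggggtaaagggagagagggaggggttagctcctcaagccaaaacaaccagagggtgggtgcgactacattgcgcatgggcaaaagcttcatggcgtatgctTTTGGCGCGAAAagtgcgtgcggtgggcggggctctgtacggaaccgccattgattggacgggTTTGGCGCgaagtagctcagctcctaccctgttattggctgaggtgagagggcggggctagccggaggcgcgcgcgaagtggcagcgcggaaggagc
Pola1 (chrX:93632106-93632405, minus strand): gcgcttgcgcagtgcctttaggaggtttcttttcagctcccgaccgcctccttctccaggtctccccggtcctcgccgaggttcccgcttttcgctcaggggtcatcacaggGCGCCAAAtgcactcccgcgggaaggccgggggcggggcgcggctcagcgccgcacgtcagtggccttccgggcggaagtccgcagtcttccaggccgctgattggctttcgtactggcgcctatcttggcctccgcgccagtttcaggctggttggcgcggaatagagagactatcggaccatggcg
Pole2 (chr12:69228141-69228440, minus strand): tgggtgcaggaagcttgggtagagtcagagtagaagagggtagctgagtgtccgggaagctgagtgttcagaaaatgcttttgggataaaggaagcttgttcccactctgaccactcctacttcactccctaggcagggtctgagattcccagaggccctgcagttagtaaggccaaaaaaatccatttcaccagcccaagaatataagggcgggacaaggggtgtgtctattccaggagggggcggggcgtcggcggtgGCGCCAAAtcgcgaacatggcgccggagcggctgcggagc
Dtl (chr1:191575495-191575794, minus strand): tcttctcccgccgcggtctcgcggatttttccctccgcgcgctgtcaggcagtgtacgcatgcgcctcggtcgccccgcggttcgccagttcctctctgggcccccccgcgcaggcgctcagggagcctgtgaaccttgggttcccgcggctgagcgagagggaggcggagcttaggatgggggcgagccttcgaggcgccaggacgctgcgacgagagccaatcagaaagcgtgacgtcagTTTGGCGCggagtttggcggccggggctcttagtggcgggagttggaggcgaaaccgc
Of the 12 members that were higher in cancer cells in both treatments, 10 matched a promoter and 4 of those held an E2F match. A match describes letters in this window and nothing about binding.

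Cancer cells were compared with TME cells first, separately in each treatment, so that the comparison in exercised mice and that in sedentary mice share no library. In exercised mice 16 of 43 members rose in cancer cells and 3 fell, at an adjusted p of 0.05 (edgeR, quasi-likelihood, Benjamini-Hochberg over all 16208 genes tested). Adjusted p-values are edgeR's wherever no tool is given. In sedentary mice 14 members were higher and 3 lower, among 16071 genes tested. The background was 16.6% of all genes higher and 22.9% lower in exercised mice, and 18.6% higher and 20.1% lower in sedentary mice. The median log2 fold change of the members was 0.29 in exercised mice, against -0.07 over all genes, and 0.21 in sedentary mice, against -0.01. In both treatments 31 of 43 members lay above 0.

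Ccne2, Chek1, Dtl, Gins3, Mcm2, Pola1, Pole, Pole2, Prim1, Rfc4, Rrm1 and Rrm2 were higher in both treatments. These 12 are 27.9% of the members, against 12.6% of the 15660 genes tested in both. Rfc2 was the only member lower in both, where 2384 of the 15660 genes were. The sign was the same in both treatments for 39 members (90.7%), against 81.6% of those genes. These counts are from fits without pairing, as are all values below unless the block is named. With the replicate number as a block, which the pairing of exercised libraries calls for, 14 members were higher and 1 lower in exercised mice. Over all 16208 genes that fit gave 1735 higher and 2423 lower. The calls lost were those of Chek1 (log2 0.43, adjusted p = 0.0937), Gins3 (0.23, adjusted p = 0.393), E2f1 (-0.16, adjusted p = 0.474) and Gins4 (-0.39, adjusted p = 0.186). With the block in both treatments, 10 of the 12 stayed higher in both. The block fit draws only on numbers found in both sorts, which are 7, 8 and 10 in exercised and 4, 6, 9 and 10 in sedentary mice. It therefore rests on fewer libraries than the main fit. In these sorted bulk samples, a difference between sorts in the share of cells in S phase and one in RNA per cell cannot be told apart.

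**Figure D1:**
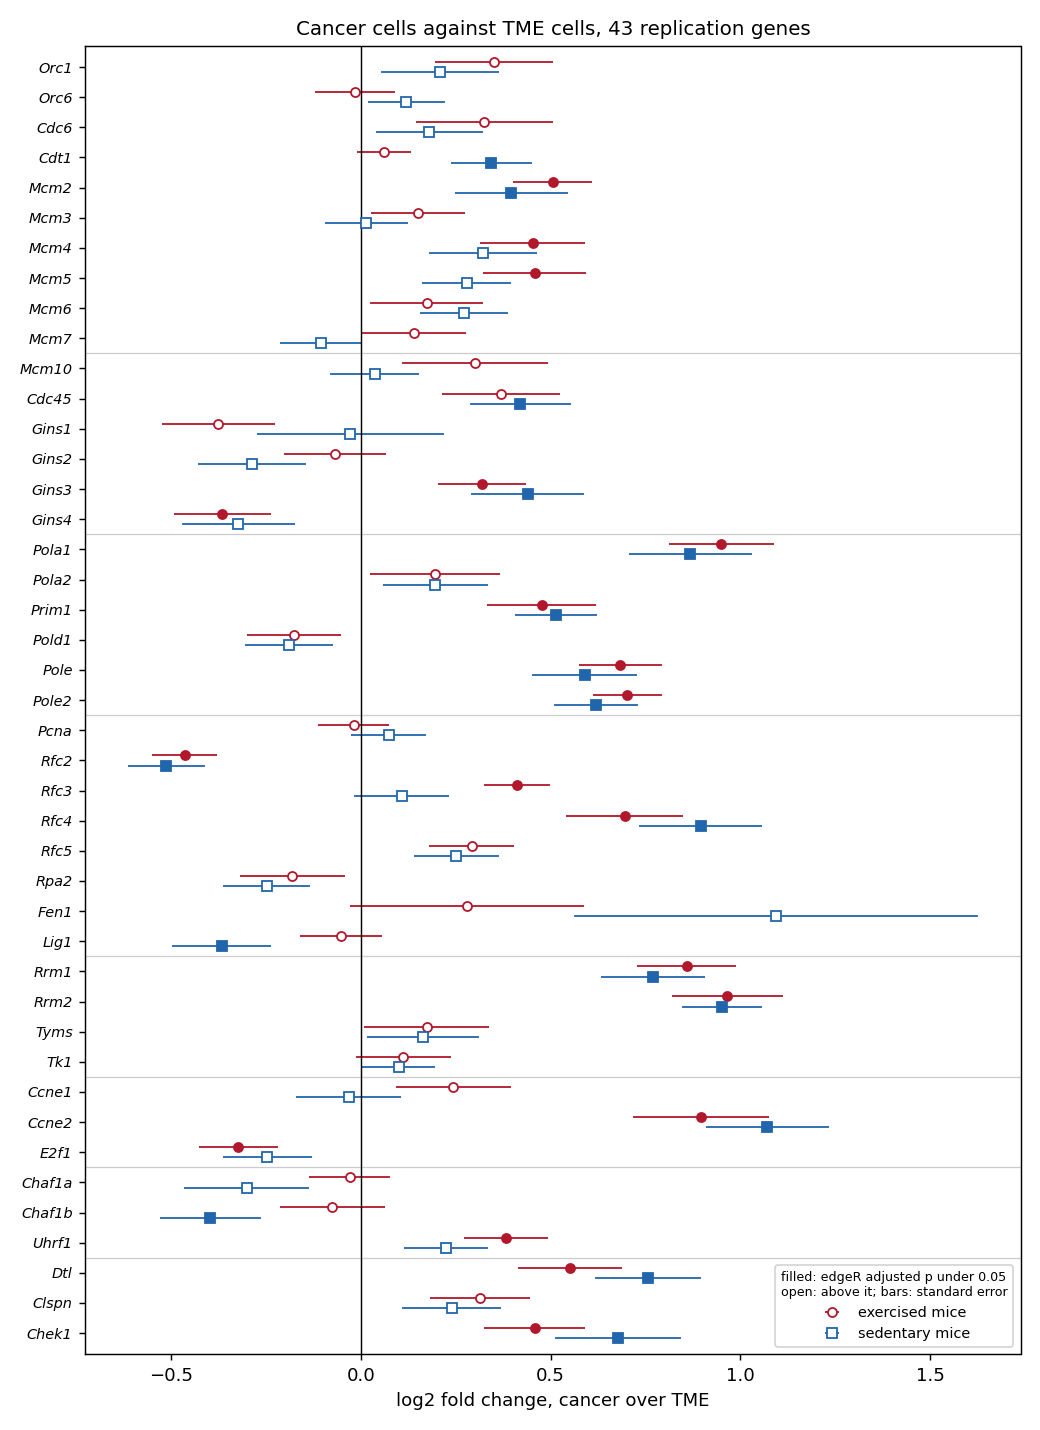
Log2 fold change of cancer over TME cells on the x axis for each of the 43 members, ordered by role and split by grey lines, in exercised mice (red circles) and sedentary mice (blue squares). Bars are standard errors and filled marks passed an adjusted p of 0.05 in the fits without the replicate block. By that test 16 members were higher in exercised and 14 in sedentary mice, with 3 lower in each. Rfc2 was the only member that passed as lower in both.

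Nucleotide synthesis gave the strongest member by p in sedentary mice. Rrm2, the small subunit of ribonucleotide reductase (chr12:24708241-24714146 in GRCm38), had a lowest, median and highest value of 234, 342 and 403 CPM in exercised cancer cells. Exercised TME libraries 7, 8, 9 and 10 had 166, 176, 182 and 115 CPM. Every exercised cancer library lay above every exercised TME library, and the log2 fold change was 0.97 ± 0.15 (standard error throughout, adjusted p = 0.000154). In sedentary mice Rrm2 had 237, 296 and 312 CPM in cancer cells as lowest, median and highest. Sedentary TME libraries 4, 6, 9 and 10 had 132, 128, 171 and 137 CPM. The groups did not overlap there either, with a log2 fold change of 0.95 ± 0.11 (adjusted p = 9.1e-07). Rrm1, the large subunit, was higher by 0.86 ± 0.13 in exercised and 0.77 ± 0.14 in sedentary mice.

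The other members, which feed thymidine nucleotides, did not pass the test as fitted without corrections. Tk1, thymidine kinase, had a median of 80.7 CPM in exercised cancer cells, against 65.7 CPM in exercised TME cells (log2 0.11 ± 0.13, adjusted p = 0.508). Its medians in sedentary mice were 76.7 CPM in cancer and 71.4 CPM in TME cells (0.10 ± 0.10, adjusted p = 0.442). With GC content and length corrected for, the sedentary value became 0.27 ± 0.09 and passed (adjusted p = 0.0282). The groups overlapped in both treatments. Tyms, thymidylate synthase, gave 0.17 ± 0.16 in exercised and 0.16 ± 0.15 in sedentary mice.

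Of the 6 polymerase and primase genes, 4 were higher in cancer cells in both treatments. Pola1, the catalytic subunit of polymerase alpha (chrX:93304767-93632155), had 64.8, 90.4 and 100.4 CPM as lowest, median and highest in exercised cancer cells. Exercised TME libraries had 33.8, 49.0, 52.8 and 37.6 CPM. In sedentary mice the cancer libraries had 56.6, 70.6 and 110.3 CPM, and the TME libraries 45.8, 32.4, 42.95 and 36.2 CPM. The sorts did not overlap in either treatment, with log2 fold changes of 0.95 ± 0.14 (adjusted p = 0.000109) in exercised and 0.87 ± 0.16 (adjusted p = 0.000345) in sedentary mice. Pole and Pole2, the catalytic and second subunits of the leading strand polymerase epsilon, were higher by 0.68 ± 0.11 and 0.70 ± 0.09 in exercised mice, and by 0.59 ± 0.14 and 0.62 ± 0.11 in sedentary mice. Prim1, the catalytic primase subunit, was higher by 0.48 ± 0.14 and 0.51 ± 0.11.

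Partners of these enzymes did not all move with them. Pola2, the second subunit of polymerase alpha, gave 0.20 ± 0.17 in exercised and 0.20 ± 0.14 in sedentary mice, neither past the test. Pold1, the catalytic subunit of the lagging strand polymerase delta, had medians of 30.7 CPM in exercised cancer and 30.5 CPM in exercised TME cells, and 28.3 and 31.6 CPM in sedentary cancer and TME cells. Its log2 fold changes were -0.18 ± 0.12 (adjusted p = 0.277) and -0.19 ± 0.12 (adjusted p = 0.212). With a correction for transcript GC content and length they became 0.07 and 0.15, also short of the test.

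The clamp loader subunits went in opposite directions. Rfc4 had 17.7, 23.2 and 28.6 CPM as lowest, median and highest in exercised cancer cells, and 9.64, 14.9, 16.2 and 13.9 CPM in the exercised TME libraries. Its log2 fold change was 0.69 ± 0.15 in exercised (adjusted p = 0.00255) and 0.90 ± 0.16 in sedentary mice (adjusted p = 0.000246), and no cancer library fell to the level of a TME library of the same treatment. Rfc2 (chr5:134581366-134601805) had 44.1, 50.1 and 58.2 CPM in exercised cancer cells. Exercised TME libraries 7 to 10 had 71.0, 65.0, 64.3 and 59.1 CPM, all above the cancer libraries. In sedentary mice the cancer libraries had 44.6, 49.7 and 63.1 CPM, and the TME libraries 77.0, 67.1, 65.1 and 72.1 CPM. Rfc2 was lower, at -0.46 ± 0.09 (adjusted p = 0.000658) in exercised and -0.51 ± 0.10 (adjusted p = 0.000557) in sedentary mice. Of its exon bases 15.1% overlap Lat2 on the other strand, and as no strand setting is given in the sources used here, reads of both cannot be told apart there. The same holds for 12.7% of Rfc4, with Eif4a2.

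Rfc3 was higher in exercised mice (0.41 ± 0.09, adjusted p = 0.00179) and gave 0.11 ± 0.13 in sedentary mice. Rfc5 gave 0.29 ± 0.11 (adjusted p = 0.0513) in exercised and 0.25 ± 0.11 (adjusted p = 0.0798) in sedentary mice. DESeq2 called Rfc5 higher in exercised mice, while limma voom and the replicate block did not. Pcna, the clamp itself, had medians of 134.6 CPM in exercised cancer and 128.6 CPM in exercised TME cells, and 123 and 117 CPM in sedentary cancer and TME cells. Its libraries overlapped, with log2 fold changes of -0.02 ± 0.09 and 0.07 ± 0.10. CPM values and fold changes are scaled over different sets of libraries, so near 0 they can differ in sign, as for Pcna in exercised mice. A processed pseudogene, Pcna-ps2, shares 31.8% of its 50-base words, so its count is uncertain. Lig1, the ligase that joins lagging strand fragments, was lower in sedentary mice (-0.37 ± 0.13, adjusted p = 0.0319) and gave -0.05 ± 0.11 in exercised mice. That call was lost without any 1 of sedentary TME libraries 4, 6 and 9 or cancer library 6. It was lost by limma voom as well (adjusted p = 0.0523), and without TME libraries 4 and 6 together (adjusted p = 0.193). With GC content and length corrected for, Lig1 gave -0.18 in sedentary mice (adjusted p = 0.307). Rpa2, of the single-strand binding complex, gave -0.18 ± 0.14 and -0.25 ± 0.11.

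Fen1, the flap endonuclease of the lagging strand, had 0.975 to 1.68 CPM in exercised cancer cells and 1.44, 1.36, 0.597 and 0.709 CPM in the exercised TME libraries. In sedentary mice it had 1.23 to 2.06 CPM in cancer cells, and 0, 0.803, 1.46 and 0.268 CPM in the TME libraries. Its log2 fold changes of 0.28 ± 0.31 and 1.09 ± 0.53 did not pass the test, although limma voom gave the sedentary value an adjusted p of 0.0475. The level was far below that of the other members, and 84.2% of its exon bases overlap Tmem258 and Gm10143 on the other strand, so this value is uncertain. Gins2 (67.3%, with Gse1) and Chaf1a (52.5%, with Ubxn6) had the next largest overlaps.

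**Figure D2:**
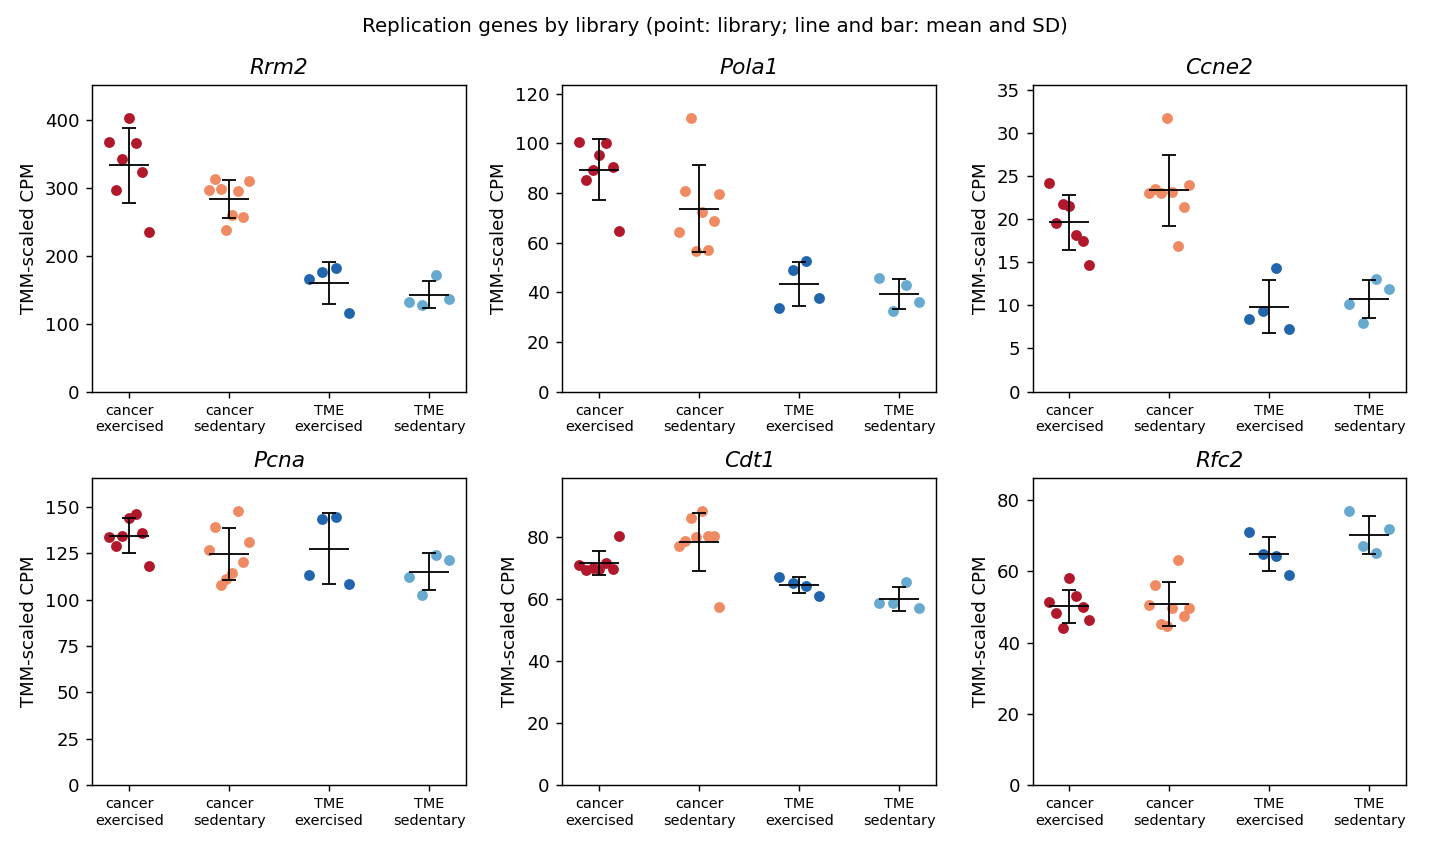
TMM-scaled CPM on a y axis from 0 for 6 members in each library of the 4 groups on the x axis, with the group mean and SD as line and bar. Rrm2 and Pola1 libraries of cancer cells all lie above the TME libraries of their treatment, Rfc2 lies below, and Pcna overlaps.

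Origin licensing genes leaned the same way with smaller sizes. Mcm2, a subunit of the helicase ring (chr6:88883474-88898780), had 96.4, 119 and 134 CPM as lowest, median and highest in exercised cancer cells, and 70.0, 82.1, 85.6 and 66.8 CPM in the exercised TME libraries. The groups did not overlap (0.51 ± 0.10, adjusted p = 0.00152). In sedentary mice the cancer libraries had 94.6, 112 and 128 CPM. Sedentary TME libraries 4, 6, 9 and 10 had 62.6, 62.8, 119.9 and 85.4 CPM, so library 9 lay within the cancer range. The log2 fold change there was 0.40 ± 0.15 (adjusted p = 0.0409). It was 0.08 (adjusted p = 0.748) without libraries 4 and 6, those with the most mitochondrial counts, and it lost the call in 8 of 12 fits that left out 1 library.

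Mcm4 and Mcm5 were higher in exercised mice (0.45 ± 0.14 and 0.46 ± 0.14) and gave 0.32 ± 0.14 and 0.28 ± 0.12 in sedentary mice, short of the test. Mcm3, Mcm6 and Mcm7, which sit in the same ring, gave 0.15, 0.17 and 0.14 in exercised and 0.01, 0.27 and -0.10 in sedentary mice, none past the test. In sedentary mice limma voom called Mcm5 and Mcm6 higher. The correction for GC content and length did so for Mcm5, and the replicate block for Mcm6. Mcm4, Mcm5 and Mcm6 were also called there in some fits that left out 1 library. Mcm7 had medians of 68.8 CPM in exercised cancer and 64.1 CPM in exercised TME cells, and 63.7 and 64.4 CPM in sedentary cancer and TME cells, with overlapping libraries. Its value in sedentary mice turned to 0.01 without TME library 9. The processed pseudogene Gm5487 shares 26.0% of its 50-base words.

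Cdt1, the loader of the ring, was higher in sedentary mice (0.34 ± 0.11, adjusted p = 0.0148) and gave 0.06 ± 0.07 in exercised mice (adjusted p = 0.528). That call was lost without sedentary TME library 10 (adjusted p = 0.0535), and although the exercised groups did not overlap, their difference was small. Orc1 and Cdc6 gave 0.35 ± 0.16 and 0.33 ± 0.18 in exercised mice, and 0.21 ± 0.16 and 0.18 ± 0.14 in sedentary mice. Orc6 gave -0.02 ± 0.11 and 0.12 ± 0.10. None of these passed the test in the main fits. In exercised mice Orc1 was called higher by DESeq2, with all 23 libraries in 1 fit and without cancer library 10. Cdc6 was called higher there with all 23 libraries in 1 fit.

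Helicase activation genes were divided. Gins3 had 13.1, 17.5 and 19.3 CPM as lowest, median and highest in exercised cancer cells, and 12.7, 13.2, 12.7 and 11.8 CPM in the exercised TME libraries (0.32 ± 0.12, adjusted p = 0.0394). In sedentary mice it had 14.8, 18.9 and 23.1 CPM in cancer and 16.4, 12, 12.1 and 14.0 CPM in TME cells (0.44 ± 0.15, adjusted p = 0.0238). The libraries overlapped in both treatments, and the call was lost in 6 of 11 exercised and 2 of 12 sedentary fits that left out 1 library. With the replicate block the exercised call was lost as well (adjusted p = 0.393). Gins4, another subunit of the same complex, had medians of 14.0 CPM in exercised cancer and 16.7 CPM in exercised TME cells, and 13.1 and 17.1 CPM in sedentary cancer and TME cells. It was lower in exercised mice (-0.36 ± 0.13, adjusted p = 0.0344) and gave -0.32 ± 0.15 in sedentary mice (adjusted p = 0.093). The exercised call held in 4 of 11 fits that left out 1 library, and DESeq2 gave an adjusted p of 0.0573. With the replicate block the exercised adjusted p of Gins4 was 0.186. Cdc45 was higher in sedentary mice (0.42 ± 0.13, adjusted p = 0.0171) and gave 0.37 ± 0.16 in exercised mice (adjusted p = 0.0725). Cdc45 also passed in exercised mice by DESeq2 and limma voom, but not with the replicate block. Without sedentary TME library 4 or 6 its adjusted p was 0.0956 and 0.059. Mcm10, Gins1 and Gins2 did not pass the test in either treatment, and Gins1 came closest with -0.38 ± 0.15 in exercised mice (adjusted p = 0.0583). Limma voom called Gins1 lower in exercised mice.

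Among the G1/S regulators the cyclins E parted. Ccne2, which turns on the kinase that fires origins (chr4:11191351-11204779), had 14.7, 19.5 and 24.2 CPM as lowest, median and highest in exercised cancer cells. The exercised TME libraries had 8.47, 9.32, 14.4 and 7.27 CPM. In sedentary mice the cancer libraries had 16.9, 23.1 and 31.7 CPM and the TME libraries 10.1, 7.95, 13.1 and 11.9 CPM. The groups did not overlap, although exercised cancer library 10 and exercised TME library 9 were close. Of its exon bases 17.4% overlap Ints8 on the other strand, where reads of both cannot be told apart. The log2 fold changes were 0.90 ± 0.18 (adjusted p = 0.00117) and 1.07 ± 0.16 (adjusted p = 4.24e-05). Ccne1 gave 0.24 ± 0.15 and -0.03 ± 0.14. E2f1, an activating E2F factor, had medians of 28.2 CPM in exercised cancer and 33.9 CPM in exercised TME cells, and 31.4 and 36.0 CPM in sedentary cancer and TME cells. It was lower in exercised mice (-0.32 ± 0.10, adjusted p = 0.0227) and gave -0.25 ± 0.12 in sedentary mice (adjusted p = 0.105). Its exercised call was lost without any 1 of the 4 TME libraries, with adjusted p between 0.0561 and 0.0868. It was lost with the replicate block as well (-0.16, adjusted p = 0.474). With GC content and length corrected for, the values became -0.05 (adjusted p = 0.743) in exercised and 0.11 (adjusted p = 0.589) in sedentary mice.

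The checkpoint group held 2 of its 3 members higher in both treatments. Dtl, the receptor of the ubiquitin ligase that removes Cdt1 in S phase, had 44.6, 66.6 and 79.0 CPM as lowest, median and highest in exercised cancer cells, and 41.8, 48.9, 44.6 and 32.5 CPM in the exercised TME libraries (0.55 ± 0.14, adjusted p = 0.00512). In sedentary mice it had 46.5, 60.4 and 78.8 CPM in cancer and 29.8, 29.7, 40.9 and 38.4 CPM in TME cells (0.76 ± 0.14, adjusted p = 0.000282). The sedentary groups did not overlap, and in exercised mice only cancer library 10 lay within the TME range. Chek1, the checkpoint kinase, was higher by 0.46 ± 0.13 and 0.68 ± 0.17. Its exercised call was lost with the replicate block (adjusted p = 0.0937). Clspn, its adaptor, had medians of 27.3 CPM in exercised cancer and 20.8 CPM in exercised TME cells, and 23.1 and 19.5 CPM in sedentary cancer and TME cells. Its log2 fold changes of 0.31 ± 0.13 (adjusted p = 0.0709) and 0.24 ± 0.13 (adjusted p = 0.161) missed the threshold, although DESeq2 gave the exercised value an adjusted p of 0.0293.

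Genes that restore chromatin behind the fork did not share a direction. Uhrf1, which brings the maintenance methyltransferase to copied DNA, had 68.8, 80.5 and 102 CPM as lowest, median and highest in exercised cancer cells, and 62.8, 61.1, 65.0 and 48.9 CPM in the exercised TME libraries (0.38 ± 0.11, adjusted p = 0.0129). The groups did not overlap. In sedentary mice it had 64.3, 71.0 and 80.7 CPM in cancer and 53.0, 51.8, 78.7 and 54.3 CPM in TME cells, with library 9 high (0.22 ± 0.11, adjusted p = 0.12). The sedentary value passed without library 9 (0.38, adjusted p = 0.00614), with GC content and length corrected for (0.39, adjusted p = 0.0123) and by limma voom (0.28, adjusted p = 0.0387). Chaf1b, a subunit of the histone chaperone CAF-1, was lower in sedentary mice (-0.40 ± 0.13, adjusted p = 0.0236), with medians of 15.9 CPM in cancer and 19.8 CPM in TME cells. It gave -0.07 ± 0.14 in exercised mice, where the sign turned without TME library 7 or 8, and its sedentary call was lost without TME library 4 or 6. Chaf1a gave -0.03 ± 0.11 and -0.30 ± 0.16.

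Compared by non-overlap of libraries, 11 members lay wholly above and 1 wholly below the TME libraries in exercised mice, where 14.8% and 11.1% of all genes did. In sedentary mice 9 lay above and 1 below, where 11.6% and 10.4% of all genes did. The calls of Ccne2, Pola1, Pole, Pole2, Prim1, Rfc4, Rrm1 and Rrm2 as higher, and of Rfc2 as lower, held in both treatments under each alternative run. Dtl held in all but the fit corrected for GC content and length in exercised mice (adjusted p = 0.0834). Without exercised TME libraries 8 and 9, which held the most leukocyte transcripts, 20 members were higher and 1 lower. Without sedentary TME libraries 4 and 6, 9 were higher and 1 lower. Over all 17144 genes of that sedentary fit 1561 were higher and 1922 lower, fewer than the 2988 and 3238 of the main fit. The counts over all genes without exercised TME libraries 8 and 9 are not given here.

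The size of the difference moved with base composition. Across the 43 members the log2 fold change and the GC content of the longest transcript had a Pearson r of -0.59 (Spearman -0.57) in exercised mice and -0.58 (Spearman -0.52) in sedentary mice. These genes share libraries and are not independent replicates, so the values are descriptions. Over all genes with a transcript the Pearson r was -0.14 (Spearman -0.32) among 15672 in exercised mice and -0.22 (Spearman -0.41) among 15543 in sedentary mice. The 12 members higher in both treatments had a median GC content of 43.7%, against 50.9% for the 5 that were lower in either and 50.3% for the other 26. Some of those 26 were higher in 1 treatment only. With GC content and length fitted as splines, 18 members were higher and 1 lower in exercised mice, and 17 and 2 in sedentary mice. Over all 15543 genes of the sedentary spline fit 1924 were higher and 2519 lower, and those of the exercised one are not given here. Of the 12 members, 10 stayed higher in both. Pola1 then gave 0.65 ± 0.11 in exercised and 0.46 ± 0.13 in sedentary mice, and Rrm2 0.99 ± 0.13 and 0.88 ± 0.09. Chek1 lost the call in both (adjusted p = 0.0794 and 0.0535).

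**Figure D3:**
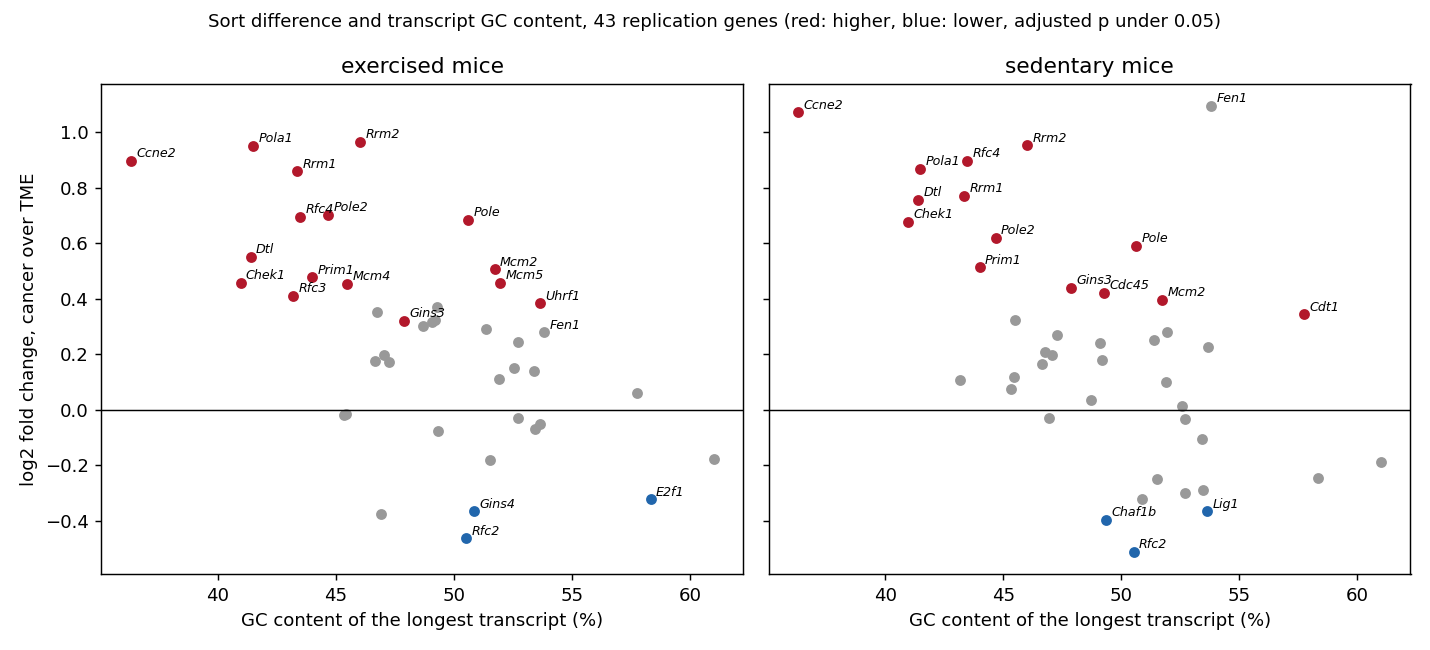
Log2 fold change of cancer over TME cells on the y axis against the GC percentage of the longest transcript on the x axis for 43 members, in exercised mice on the left and sedentary mice on the right. Members that were higher (red) lie mostly towards low GC content, from Ccne2 at 36.3% up to Uhrf1 at 53.7% in exercised and Cdt1 at 57.8% in sedentary mice. Those lower (blue) lie at 49.3% or above.

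Genes beside the set in the same processes were counted in the same fits. Of 41 other replication genes, 13 were higher and 4 lower in exercised mice, and 16 and 5 in sedentary mice. Ticrr, which helps load Cdc45, was higher by 1.03 ± 0.12 and 1.10 ± 0.16, and Rnaseh2a, a subunit of the enzyme that removes ribonucleotides from DNA, was lower, at -0.71 ± 0.13 in sedentary mice. The list of replication stress and histone supply genes had 13 of 24 higher in exercised and 19 of 24 higher in sedentary mice, with none lower. Atad2, a chromatin ATPase, was higher by 0.76 ± 0.11 and 0.84 ± 0.12. G2 and M phase genes had 14 of 24 higher in each treatment, with none lower in exercised and 1 lower in sedentary mice. Anln, a scaffold of cell division, was higher by 1.03 ± 0.11 and 1.02 ± 0.12.

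Nucleotide supply genes had 9 of 22 higher and 2 lower in exercised mice, and 7 higher and 2 lower in sedentary mice. Samhd1, which degrades deoxynucleotides, was lower, at -1.03 ± 0.12 and -0.58 ± 0.12. It is also known as a gene of myeloid cells, which the TME sort held. Other G1/S regulators had 10 of 23 higher and 2 lower in exercised mice, and 14 and 2 in sedentary mice, with E2f6, a repressor E2F, higher by 0.77 ± 0.13 and 0.69 ± 0.10. Among 6 tested inhibitors of cyclin-dependent kinases, Cdkn1a was lower, at -1.01 ± 0.20 and -0.56 ± 0.15, and Cdkn2a was lower, at -0.65 ± 0.20 and -0.67 ± 0.16. Cdkn1b was higher in sedentary mice (0.37 ± 0.10). With GC content and length corrected for, the sedentary calls of all of them were lost, at -0.28, -0.22 and 0.06. The exercised call of Cdkn2a was lost as well (-0.18, adjusted p = 0.234), as it was without TME library 7 (-0.38, adjusted p = 0.109) or library 10 (-0.53, adjusted p = 0.0701). The marker lists of the other cell types moved the opposite way: in exercised mice 12 of 12 leukocyte, 12 of 12 macrophage, 11 of 12 endothelial and 9 of 12 fibroblast markers were lower in cancer cells, and 11, 11, 12 and 7 of 12 were in sedentary mice. Their part in the difference of the members was not tested.

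Per kilobase of exon, levels of the members spanned a wide range. In sedentary cancer cells Rrm2 stood first with 102 ± 10.1 CPM per kb (SD, n = 8), followed by Pcna with 52.0 ± 5.91, Mcm4 with 27.5 ± 5.23 and Cdt1 with 25.0 ± 2.97. Mcm4 and Cdt1 did not differ beyond their spread. Chaf1a (1.91 ± 0.452) and Fen1 (0.622 ± 0.113) stood last. Rrm2 had 57.7 ± 10.98 CPM per kb in exercised TME cells (SD, n = 4) and 51.3 ± 7.17 in sedentary TME cells (SD, n = 4). Pcna had 53.2 ± 8.08 and 48.0 ± 4.14 there, so the 2 genes did not differ beyond their spread in TME cells.

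Exercised mice were then compared with sedentary mice within each sort, which addresses how exercise relates to the cancer cells themselves. No member passed the test in cancer cells by edgeR's quasi-likelihood test, DESeq2 or limma voom, among 15096 genes tested, and the background of calls was 0% in each direction by edgeR. DESeq2 called 161 genes and voom 196, none of them a member. At an unadjusted p under 0.05, 5 members lay above 0 and 2 below, against 894 and 1007 of all genes. The median of the members was 0.05, against -0.01 over all genes, and 30 of 43 lay above 0. On simulated data this comparison recovered 57% of genes changed by 0.5 on the log2 scale and 86% of those changed by 1, and no smaller change was simulated.

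The members with the smallest p had small fitted values. Mcm3 had 74.4, 81.8 and 108.6 CPM as lowest, median and highest in exercised cancer cells, and 62.1, 71.9 and 85.3 CPM in sedentary cancer cells (log2 0.20 ± 0.08, unadjusted p = 0.0269, adjusted p = 0.339). Rrm2 had 234, 342 and 403 CPM exercised and 237, 296 and 312 CPM sedentary (0.20 ± 0.09, unadjusted p = 0.0434, adjusted p = 0.382). The groups overlapped for both. Pole2 gave 0.16 ± 0.07 (unadjusted p = 0.0383), with 47.3, 58.9 and 62.0 CPM exercised and 45.5, 49.6 and 55.7 CPM sedentary. Uhrf1 gave 0.17 ± 0.08 (unadjusted p = 0.0392), with 68.8, 80.5 and 102 CPM exercised and 64.3, 71.0 and 80.7 CPM sedentary. Mcm5, next in order, gave 0.20 ± 0.09. Each of these had exercised libraries within the sedentary range.

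Below 0, Ccne2 had 14.7, 19.5 and 24.2 CPM in exercised cancer cells and 16.9, 23.1 and 31.7 CPM in sedentary cancer cells (-0.29 ± 0.12, unadjusted p = 0.0254, adjusted p = 0.333). Cdt1 had 69.2, 69.9 and 80.2 CPM exercised and 57.3, 80.0 and 88.3 CPM sedentary (-0.17 ± 0.08, unadjusted p = 0.0483, adjusted p = 0.393). Library 10 of each treatment stood on the other side for Cdt1, highest among exercised and lowest among sedentary libraries. Gins3 gave -0.21 ± 0.11 and Rpa2 -0.16 ± 0.09, both with an unadjusted p above 0.05. All 6 polymerase and primase genes lay above 0, from 0.04 to 0.24 (Pola1, unadjusted p = 0.0603, the largest value of any member), and 4 of 6 helicase activation genes lay below it.

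One library weighed on these values. Exercised cancer library 10 was the lowest of all 15 cancer libraries for 15 members, and library 7 the highest for 16. The mean log2 CPM of the 43 members was 5.02 in library 10 and 5.22 to 5.49 in the other exercised cancer libraries, against 5.10 to 5.39 in sedentary ones. Without library 10, 12 members had an unadjusted p under 0.05, and without library 7 none did. None passed the adjusted test in any fit that left out 1 library. Of 12 leukocyte markers 11 lay above 0 with a median of 0.48, 3 of them at an unadjusted p under 0.05, and none passed the adjusted test. With their level as a covariate 3 members had an unadjusted p under 0.05 and none passed the adjusted test.

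**Figure D4:**
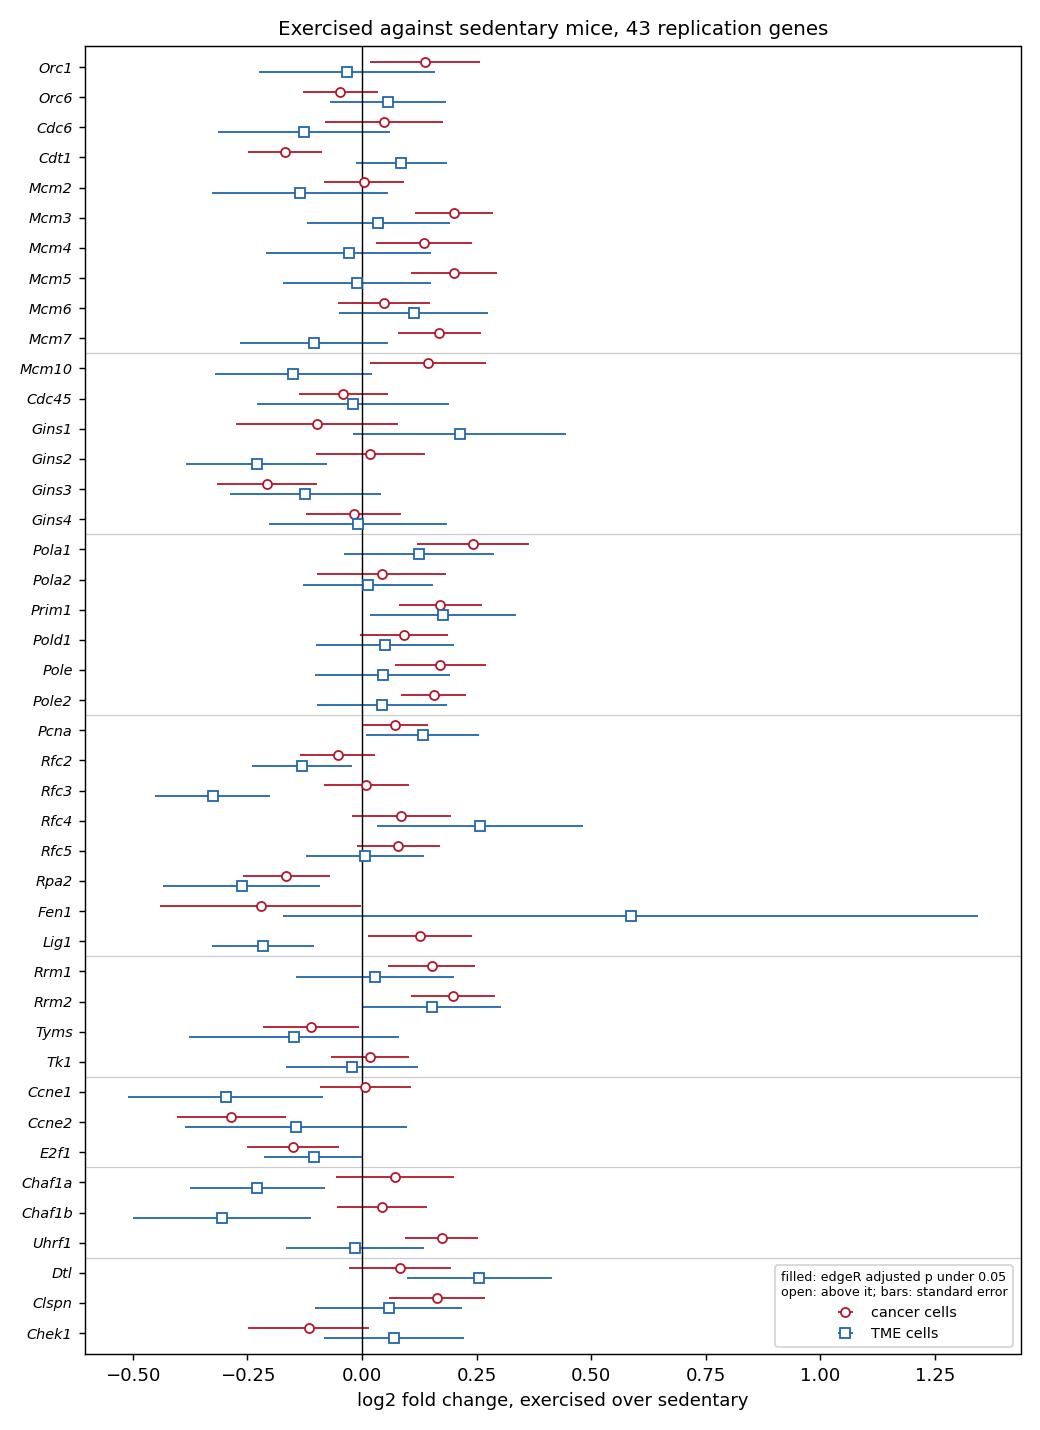
Log2 fold change of exercised over sedentary mice on the x axis for each member by role, in cancer cells (red circles) and TME cells (blue squares), with standard errors. No mark is filled, since no member passed an adjusted p of 0.05 in either sort.

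The G2 and M phase list, the nearest to the set in the cell cycle, had a median of 0.18 in the same comparison, with 21 of 24 genes above 0. At an unadjusted p under 0.05, 11 of them lay above and 1 below, and none passed edgeR's adjusted test. Hmmr, a spindle protein, had the smallest p (0.48 ± 0.10, adjusted p = 0.0804), and DESeq2 and voom gave it adjusted p-values of 0.00441 and 0.0161. Mki67, the proliferation marker Ki-67, gave 0.34 ± 0.09 (adjusted p = 0.133), with 0.0384 by DESeq2 and 0.0233 by voom. Whether this list and the 43 members differ in their response was not tested.

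**Figure D5:**
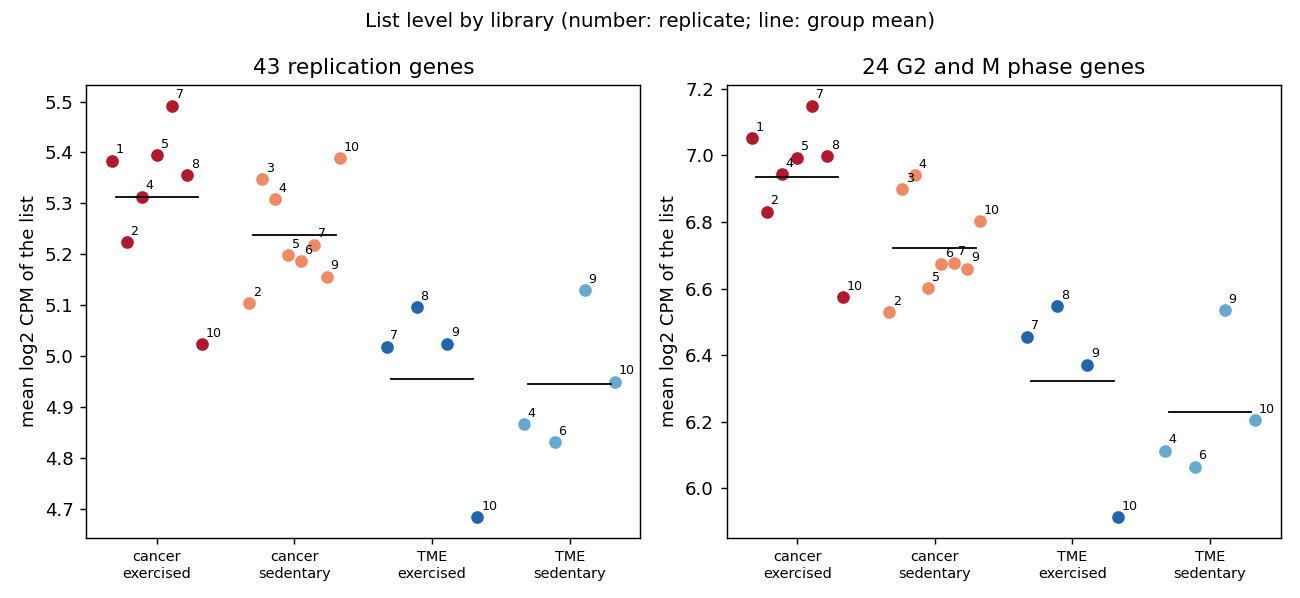
Mean log2 CPM on the y axis of the 43 members (left) and of 24 G2 and M phase genes (right) in each of the 23 libraries, labelled by replicate number, with the group mean as a line. Exercised cancer library 10, at 5.02, lies among the TME libraries for the members, and exercised TME library 10 is the lowest of all at 4.68.

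In TME cells no member passed the test among 16273 genes by edgeR's quasi-likelihood test, DESeq2 or voom, where the background of edgeR calls was 0% in each direction. At an unadjusted p under 0.05 none lay above 0 and 1 below, against 802 and 571 of all genes. The members had a median of -0.01, and 20 of 43 lay above 0. On simulated data this comparison recovered none of the genes changed by 0.5 on the log2 scale and 40% of those changed by 1. The simulation was run once, on genes drawn without regard to the members, so it sets no detection limit for them.

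Rfc3 had 33.0, 33.5, 43.3 and 34.8 CPM in exercised TME libraries 7 to 10, and 46.2, 39.6, 47.1 and 46.2 CPM in sedentary libraries 4, 6, 9 and 10. Exercised library 9 lay above sedentary library 6, and the log2 fold change was -0.33 ± 0.13 (unadjusted p = 0.0238, adjusted p = 0.586). Lig1 had 43.5, 44.1, 38.8 and 41.3 CPM exercised and 52.5, 46.2, 50.5 and 43.8 CPM sedentary (-0.22 ± 0.11, unadjusted p = 0.0776). Chaf1b gave -0.31 ± 0.19 and Chaf1a -0.23 ± 0.15. On the other side Dtl had 41.8, 48.9, 44.6 and 32.5 CPM exercised and 29.8, 29.7, 40.9 and 38.4 CPM sedentary (0.26 ± 0.16, unadjusted p = 0.132). Rfc4 had 9.64, 14.9, 16.2 and 13.9 CPM exercised and 9.36, 9.67, 16.0 and 9.96 CPM sedentary (0.26 ± 0.22, unadjusted p = 0.274). Prim1 gave 0.18 ± 0.16 and Pcna 0.13 ± 0.12, and the libraries of Dtl and Rfc4 overlapped.

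Exercised TME library 10 was the lowest TME library for 23 members, and sedentary TME library 9 the highest for 11. Leukocyte markers were above 0 for 12 of 12 with a median of 1.10, and endothelial markers below 0 for 11 of 12 with a median of -1.08. Without exercised libraries 8 and 9, the members had a median of -0.10, with 9 above 0 and none called. Their part in the values of the members was not tested.

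The exercise effect was last compared between the sorts in 1 fit of all 23 libraries, as the effect in cancer cells minus that in TME cells. No member passed among 17503 genes by edgeR's quasi-likelihood test, DESeq2 or voom, with a background of 0% in each direction by edgeR, and 2 had an unadjusted p under 0.05. These were Rfc3 (0.35 ± 0.16, unadjusted p = 0.0346, adjusted p = 0.626) and Lig1 (0.36 ± 0.18, unadjusted p = 0.0496, adjusted p = 0.662). Chaf1b followed with 0.37 ± 0.19 (unadjusted p = 0.0649). In the separate fits of each sort, the effects of Rfc3 were 0.01 ± 0.09 in cancer and -0.33 ± 0.13 in TME cells, and those of Lig1 were 0.13 ± 0.11 and -0.22 ± 0.11. The members had a median difference of 0.10, against -0.01 over all genes. On simulated data the fit recovered 4% of genes whose effects differed by 0.5 and 44% of those that differed by 1.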

How the data were processed

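The table deposited by the authors holds unnormalized counts of reads by gene symbol in 23 libraries, made with STAR and featureCounts on mm10, per the submitters' processing notes. Annotation and strandedness are not stated there. Of 48397 symbols, 16422 had no read. Groups came from the labels. The members and gene lists were chosen with earlier results of these data known. Counts were tested with edgeR 4.0.16 in R 4.3.3 (filterByExpr, TMM scaling, robust quasi-likelihood test, two-sided, Benjamini-Hochberg threshold 0.05 over all genes of the fit). CPM values, and the non-overlap of libraries read from them, use TMM factors of all 23 libraries together. Each fold change uses TMM factors of the libraries in its own fit. Ratios of CPM values can therefore differ from fold changes. In exercised mice the median log2 fold change of cancer over TME cells over all genes was -0.07 in the main fit. It was -0.001 with all 23 libraries in 1 fit. DESeq2 1.42.0, limma 3.58.1 (voom), other filters and scalings, each library left out and a replicate block were alternatives. Fits without selected TME libraries, and with GC content and length splines, were chosen after seeing the data. In each role the members with the largest and smallest fold change in sedentary mice got full values; for exercise, the 4 members on each side of 0 with the smallest p; for the difference between sorts, the 3 with the smallest p; for other lists, up to 3 with the smallest p. Further genes (Rrm1, Rfc4, Pcna, Cdt1 and the other called members among them) were described after their values were seen. Coordinates, transcript GC content and overlaps came from an annotation of GRCm38 matched by symbol.

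Same-numbered cancer and TME libraries of exercised mice deviated together (correlations 0.20, 0.40 and 0.31 for numbers 7, 8 and 10 over 13546 genes). Those were taken as pairs in the fit with the replicate block, while the main fit left the pairing out. Other comparisons did not meet that criterion in every pair. No 2 libraries of a group agreed within sampling noise (lowest chi-square per degree of freedom 5.84). The test was tried on simulated counts: at a log2 change of 1 it recovered 81% of changed genes for cancer against TME in exercised mice and 76% in sedentary mice, and at 0.5 it recovered 14% and 30%.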

Additional observations from a re-analysis of the deposited data

Results flagged for a closer look

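In 19 of 176 groups of libraries (10.8%), 1 library stood far from the others. The groups were those of each member and of the members' mean level, and all flags fell on single members. The nominal rate of about 1 in 20 holds for independent groups. Members share the same libraries, so the count is no measure of an excess over chance. Values are TMM-scaled CPM. Exercised cancer library 10 was lowest for Mcm5 (61.4), Pola1 (64.8), Rpa2 (16.4) and Rrm1 (160.2), and highest for Cdt1 (80.2). Exercised cancer library 4 was highest for Pola2 (85.0). Sedentary cancer library 4 was highest for Pola1 (110.3) and Rfc4 (28.7). Sedentary cancer library 2 was lowest for Cdc6 (18.7), library 6 for Prim1 (33.2) and library 10 for Cdt1 (57.3). Exercised TME library 10 was lowest for Pola2 (34.1). Sedentary TME library 9 was highest for Mcm3 (88.6), Orc1 (12.8), Pole2 (40.4), Rfc4 (16.0) and Uhrf1 (78.7). Sedentary TME library 6 was lowest for Mcm10 (22.96) and Rfc3 (39.6). What sets these libraries apart was not tested.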

How the results depend on the processing

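For cancer against TME cells, leaving out 1 library gave 15 to 20 members higher and 1 to 3 lower in exercised mice. In sedentary mice it gave 11 to 17 higher and 1 to 4 lower. Over all genes these fits gave 2377 to 3187 higher and 2972 to 3897 lower in exercised mice. In sedentary mice they gave 2302 to 3163 higher and 2607 to 3444 lower. The count of members higher in exercised mice was 16 in the main fit, 21 with all 23 libraries in 1 fit and 20 by DESeq2. It was 19 with RLE scaling, with no filter and without mitochondrial genes. By voom and at a mean CPM of at least 1 it was 17. Over all genes these runs gave 2688, 3420, 3292, 3091, 2960, 2992, 2993 and 2735 higher, in the order named. In exercised mice the count of members lower was 1 with no filter, with all 23 libraries in 1 fit, with the replicate block, without TME libraries 8 and 9 and with GC and length splines. In sedentary mice it was 1, and the count higher was 9, without TME libraries 4 and 6; the cause was not tested. With the replicate block, exercised mice had 14 members higher and 1 lower, and sedentary mice 14 and 3, where Cdt1 lost its call (adjusted p = 0.0766). Over all genes the block gave 1735 higher and 2423 lower of 16208 in exercised mice. In sedentary mice it gave 2577 and 2796 of 16071. Signs turned for members that had not passed the test: in exercised mice Pold1 to 0.070 (splines), Tk1 to -0.058 (block), and Chaf1b to 0.017 (all libraries), 0.0037 (block), 0.11 and 0.0041 (without TME library 7 or 8) and 0.0065 (splines), with -0.15 to 0.11 over the fits that left out 1 library. In sedentary mice Mcm7 turned to 0.0071 (without TME library 9) and 0.091 (splines), with -0.18 to 0.0071 over the fits that left out 1 library, Pold1 to 0.15 and E2f1 to 0.11 (splines). Cdkn1b in exercised mice became -0.053 (splines). For exercise in TME cells, Dtl became -0.073 with the block, and without libraries 8 and 9 Prim1 became -0.077 and Pcna -0.045. The block there put 7 of 43 members above 0, on numbers that do not pair the libraries. No member passed the adjusted test for exercise, or for its difference between sorts, under any alternative run. With 4 TME libraries a group, changes of 0.5 on the log2 scale were mostly missed in simulated counts.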
